A study of Mus musculus with 8 samples.

Results

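The 7 genes described here encode the proteins that join myoblasts to one another and help build the contractile fibre: the fusion proteins Tmem8c (myomaker) and Gm7325 (myomixer), the caveolins Cav3 and Cav1, and the myofibril assembly factors Unc45b, Klhl40 and Klhl41. They were chosen by name as rows of a deposited table of 5457 genes, and all 7 were found. RNA was sequenced from 8 libraries of mouse cells in 4 groups of 2. The cells were hind limb muscle cells of adult C57BL/6 mice, sorted for the red fluorescent protein tdTomato and plated on Matrigel. The Tw2_48 and Tw2_GM libraries came from Tw2-CreERT2/+;R26-tdTO+ mice, and the Pax7_48 and Pax7_GM libraries from Pax7-CreERT2/+;R26-tdTO+ mice. In both lines a tamoxifen-inducible Cre recombinase, expressed from Twist2 (Tw2) or Pax7, switched on a tdTomato reporter at the Rosa26 locus, after 3 tamoxifen treatments given 10 days before harvest. The label thus marks cells that expressed the Cre during that time, and their descendants, to an extent that was not measured here. GM stands for growth medium, which per the labels held Ham's F10 with 20% fetal bovine serum. The differentiation medium was high-glucose DMEM with bFGF and 2% horse serum. The labels give 48 in hours for Tw2 and without a unit for Pax7, do not say which medium the 48 cultures were in, and describe the plated cells of every sample as Twist2-positive myoblasts, Pax7 samples included. They also speak of RNA from freshly sorted cells, although all samples are titled as cultures.

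Skeletal muscle fibres form when myoblasts leave the cell cycle and fuse into multinucleated myotubes. Myomaker is a membrane protein needed for the outer membrane leaflets to merge, and the micropeptide myomixer acts after it to open the fusion pore. Caveolins are the scaffold proteins of caveolae, the flask-shaped pits of the plasma membrane. Cav3 is the muscle form, and Cav1 is the form of fibroblasts, endothelium, adipocytes and many other cells. Unc45b is a chaperone that works with Hsp90 to fold myosin. Klhl40 and Klhl41 are kelch proteins of muscle that bear on the stability of nebulin and other thin filament proteins, and loss of either gene causes nemaline myopathy in humans.

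The deposited values are group means in CPM, read counts scaled to library size. Each mean was taken apart into the whole reads of its 2 libraries, which succeeded for 5452 genes and for all 7 described here (see the processing account). The libraries are called deeper and shallower, because the means do not carry replicate numbers. In every pair of values below the deeper library comes first. The library sizes implied by the means ran from 5.18 to 13.7 M reads and are scaled sizes (see the processing account). The Pax7_GM libraries were the smallest, at 7.38 and 5.18 M. Reads of the 5452 genes made up 44.6 and 43.5% of these sizes in Pax7_GM, against 57.4 to 65.7% in the other groups. The 2 libraries of a group correlated at 0.994 to 0.996 over these genes, except in Pax7_GM, where the correlation was 0.962. The table holds only genes whose group mean differed at least 2-fold between Tw2_GM and another group and that reached 10 CPM in at least 4 of the 8 libraries, so all shares are of genes selected in this way. Members under 10 CPM in Tw2_GM, such as Gm7325 and Klhl40, met the second condition through the other groups. The labels do not say that the 2 libraries of a group came from separate mice or cultures, and p-values measure only the spread between libraries. All p-values are from limma on log2(CPM + 1), adjusted by Benjamini-Hochberg over the 5452 genes and called under 0.05, with 2 libraries per group.

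In the 48 cultures of both lineages the fusion genes, Cav3 and the assembly genes were many times higher than in growth medium, while Cav1 was lower. In Tw2 cells 6 of the 7 genes were called higher and 1 lower at 48, against 35.3% called higher and 48.9% called lower (84.1% in all) among the listed genes. In Pax7 cells the counts were the same, 6 higher and 1 lower, against 38.8% and 40.5% (79.2% in all). The median log2 change of the 7 genes was 6.12 in Tw2 cells and 3.89 in Pax7 cells, beside medians of −0.49 and 0.01 over all genes. In these bulk cultures, more cells that express a gene and more RNA per cell cannot be told apart.

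**Figure D1:**
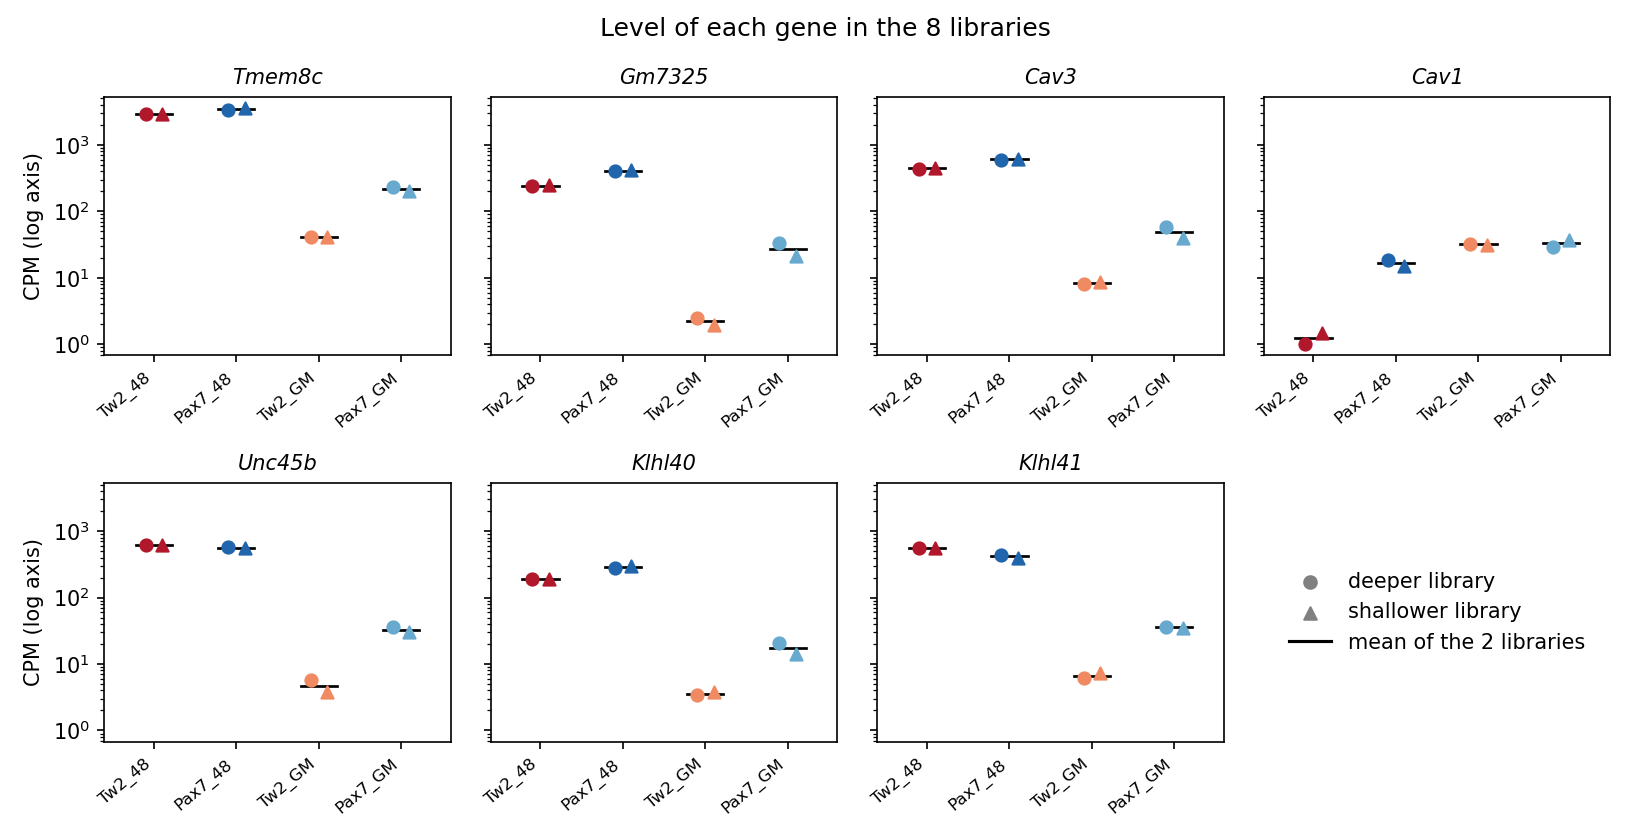
Level in CPM (log axis) of each of the 7 genes in the 8 libraries. Circles are the deeper and triangles the shallower library of a group, and lines are means. All genes but Cav1 are high in Tw2_48 and Pax7_48, lower in Pax7_GM and lowest in Tw2_GM, while Cav1 is lowest in Tw2_48, at 1.02 and 1.49 CPM.

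Tmem8c (symbol Mymk in current annotation; chromosome 2, 27061636 to 27072161, GRCm38) stood at 2960.1 and 2939.5 CPM in Tw2_48, 3384 and 3557 CPM in Pax7_48, 41.2 and 41.6 CPM in Tw2_GM, with 233 and 199 CPM in Pax7_GM. No 2 groups overlapped. In single comparisons between groups 4635 to 5178 of all 5452 genes did not overlap, and genes without overlap among all groups jointly were not counted. The order was Tw2_GM, Pax7_GM, Tw2_48 and Pax7_48 from low to high. The log2 change at 48 was 6.12 ± 0.13 in Tw2 cells (standard error, SE; adjusted p = 1.45e-08) and 4.0 ± 0.13 in Pax7 cells (adjusted p = 1.98e-07). These were the 43rd and 54th largest rises of 5452. Its partner Gm7325 (symbol Mymx; chromosome 17, 45600961 to 45602196) had the same order of groups, also without overlap. It reached 238 and 246 CPM in Tw2_48, with 401 and 415 CPM in Pax7_48, against 2.46 and 1.95 CPM in Tw2_GM, with 33.5 and 21.03 CPM in Pax7_GM. In Tw2_GM these values rest on 30 and 22 reads. The log2 change was 6.25 ± 0.21 in Tw2 cells (adjusted p = 4.1e-08) and 3.89 ± 0.21 in Pax7 cells (adjusted p = 8.05e-07). Both fusion genes were thus detected in growth medium in both lineages, and both rose in both.

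The caveolins went in opposite directions. Cav3 (chromosome 6, 112459505 to 112472872) had levels of 438 and 452 CPM in Tw2_48, 594 and 614 CPM in Pax7_48, 8.13 and 8.76 CPM in Tw2_GM, with 58.8 and 39.9 CPM in Pax7_GM. Its groups were in the same order as those of the fusion genes and did not overlap. In single comparisons between groups 4635 to 5178 of all 5452 genes did not overlap. Cav3 rose by 5.56 ± 0.18 on the log2 scale in Tw2 cells (adjusted p = 3.95e-08) and by 3.61 ± 0.18 in Pax7 cells (adjusted p = 6.01e-07). Cav1 (chromosome 6, 17306335 to 17341328) stood at 1.02 and 1.49 CPM in Tw2_48, 18.6 and 14.9 CPM in Pax7_48, 32.2 and 31.3 CPM in Tw2_GM, with 28.7 and 37.6 CPM in Pax7_GM. Tw2_48 and Pax7_48 each stood apart below the growth medium groups, which overlapped each other. The log2 change of Cav1 was −3.87 ± 0.18 in Tw2 cells (adjusted p = 2.41e-07) and −0.94 ± 0.18 in Pax7 cells (adjusted p = 0.00152). The Tw2_48 values rest on 14 reads in each library, for which exact 95% Poisson intervals, covering counting error only, ran from 0.557 to 1.71 CPM and from 0.815 to 2.50 CPM. The pseudocount of 1 CPM shrinks changes at that level, and with a pseudocount of 0.1 CPM the change of Cav1 in Tw2 cells was −4.58.

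RefSeq promoter sequences (GRCm38.p6) matched 5 of the 7 genes and not Tmem8c or Gm7325. They are shown for the caveolins because these members moved in opposite directions. Each is the 250 bases before an annotated start, 5′ to 3′ on the gene's strand, which is the plus strand for both. Capitals mark each CANNTG, the E-box bound by myogenic factors such as Myod1 and Myog, searched on both strands. Cav3 lies at chr6:112459255-112459504 and the first of 2 Cav1 starts at chr6:17306085-17306334.
Cav3: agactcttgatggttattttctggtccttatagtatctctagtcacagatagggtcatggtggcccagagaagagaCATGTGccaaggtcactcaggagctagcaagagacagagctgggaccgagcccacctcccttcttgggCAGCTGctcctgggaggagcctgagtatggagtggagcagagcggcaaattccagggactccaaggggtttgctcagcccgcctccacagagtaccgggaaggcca
Cav1: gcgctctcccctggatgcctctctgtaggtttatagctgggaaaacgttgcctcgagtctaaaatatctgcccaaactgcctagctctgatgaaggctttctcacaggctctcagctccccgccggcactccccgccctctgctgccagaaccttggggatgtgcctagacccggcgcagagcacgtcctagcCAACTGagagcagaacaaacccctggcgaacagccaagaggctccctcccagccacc
Cav3 held 2 E-boxes, CATGTG and CAGCTG, at 174 and 106 bases before the start. Cav1 held 1 in this window (CAACTG, 57 bases before the start) and 1 in that of its second start (CAGGTG). Of all 32851 promoter windows of the same length, 66.2% held a CANNTG and 13.0% held CAGCTG. These letters are a description of the windows, not of binding.

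Unc45b (chromosome 11, 82911253 to 82943406) showed the largest rise of the 7 genes in Tw2 cells. In Pax7 cells its rise was within the standard error of those of Tmem8c and Klhl40. It was at 611 and 624 CPM in Tw2_48, 570.1 and 562 CPM in Pax7_48, 5.67 and 3.81 CPM in Tw2_GM, with 35.5 and 29.9 CPM in Pax7_GM. The log2 change was 6.77 ± 0.18 in Tw2 cells (adjusted p = 1.62e-08), the 20th largest rise of 5452, and 4.08 ± 0.18 in Pax7 cells (adjusted p = 3.29e-07). Klhl40 (chromosome 9, 121777499 to 121791200) stood at 193 and 189 CPM in Tw2_48, 282 and 295 CPM in Pax7_48, 3.37 and 3.81 CPM in Tw2_GM, with 20.6 and 14.3 CPM in Pax7_GM. Its groups did not overlap, with Pax7_48 highest. Its log2 change was 5.39 ± 0.17 in Tw2 cells (adjusted p = 3.84e-08) and 3.99 ± 0.17 in Pax7 cells (adjusted p = 3.31e-07). Klhl41 (chromosome 2, 69670120 to 69684239) stood at 564 and 549 CPM in Tw2_48, 441 and 393 CPM in Pax7_48, 6.08 and 7.35 CPM in Tw2_GM, with 36.2 and 35.3 CPM in Pax7_GM. Here too no groups overlapped, while in single comparisons between groups 4635 to 5178 of all 5452 genes did not overlap. For Klhl41 and Unc45b, however, it was Tw2_48 that stood highest. The Unc45b difference between the lineages at 48 was not called (0.13 ± 0.18, limma adjusted p = 0.544). Under size factors the signs of both turned, to −0.53 for Unc45b and −0.24 for Klhl41. The log2 change of Klhl41 was 6.18 ± 0.14 in Tw2 cells (adjusted p = 1.45e-08) and 3.51 ± 0.14 in Pax7 cells (adjusted p = 2.45e-07). The strand handling of the libraries is not stated, and exons of Unc45b overlap those of 2 genes on the other strand (Unc45bos and Slfn5os) and exons of Klhl40 those of 1 (Gm47108), so reads of these pairs cannot be told apart.

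The promoters of these 3 assembly genes are shown because the genes rose together in both lineages. The windows are drawn and marked as those of the caveolins, all on the plus strand, at chr11:82911003-82911252 for Unc45b, chr9:121777357-121777606 for Klhl40 (whose RefSeq start lies inside the gene span given above) and chr2:69669870-69670119 for Klhl41.
Unc45b: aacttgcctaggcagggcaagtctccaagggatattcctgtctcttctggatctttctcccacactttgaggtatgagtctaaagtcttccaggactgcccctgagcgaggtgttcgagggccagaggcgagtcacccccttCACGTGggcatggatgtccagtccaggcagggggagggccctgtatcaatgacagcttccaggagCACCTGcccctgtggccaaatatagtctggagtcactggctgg
Klhl40: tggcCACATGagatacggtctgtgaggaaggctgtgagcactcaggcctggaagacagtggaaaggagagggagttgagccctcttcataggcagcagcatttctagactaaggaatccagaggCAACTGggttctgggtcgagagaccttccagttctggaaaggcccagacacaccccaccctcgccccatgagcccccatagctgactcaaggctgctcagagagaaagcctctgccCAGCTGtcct
Klhl41: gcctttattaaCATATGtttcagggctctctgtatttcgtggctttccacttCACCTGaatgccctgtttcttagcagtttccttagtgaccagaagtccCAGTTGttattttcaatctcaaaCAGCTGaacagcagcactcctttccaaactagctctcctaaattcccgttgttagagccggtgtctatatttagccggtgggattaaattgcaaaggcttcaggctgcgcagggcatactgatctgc
Unc45b held 2 E-boxes, Klhl40 held 3 and Klhl41 held 4. One of those of Klhl40, 10 bases before the start, and one of those of Klhl41, 127 bases before it, read CAGCTG. Klhl41 alone among the windows shown also held a match to the MEF2 motif, 63 bases before the start, which 2.92% of all windows held.

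**Figure D2:**
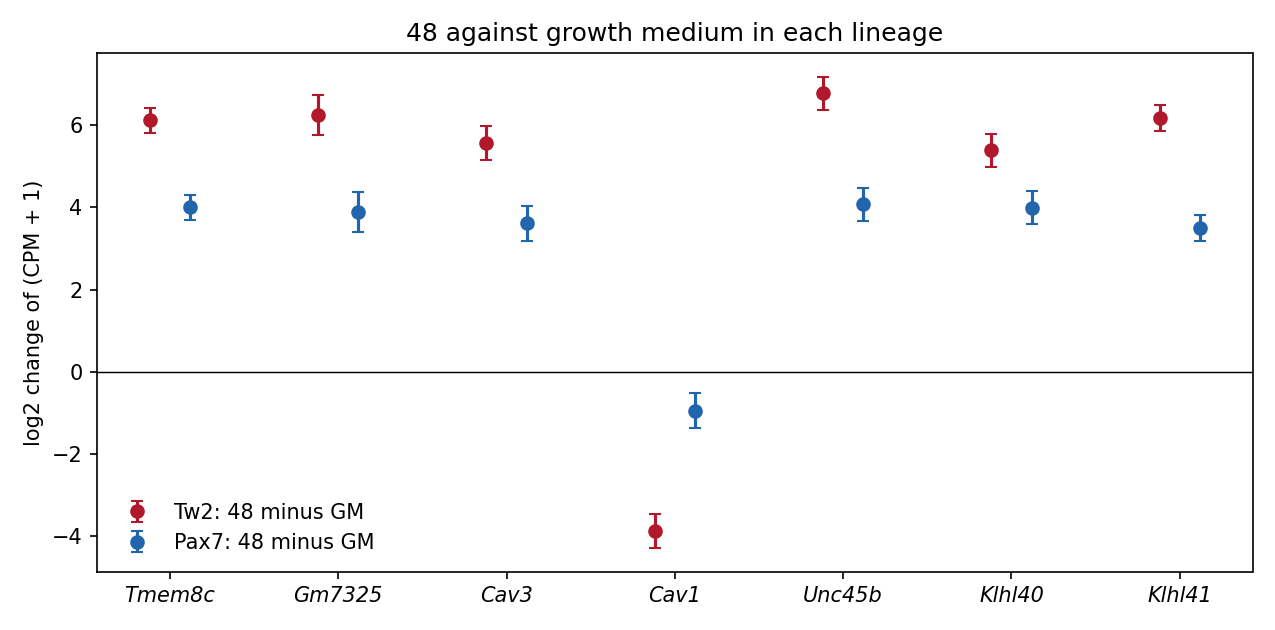
Difference in log2(CPM + 1) between the 48 cultures and growth medium for each gene, in Tw2 cells (red) and Pax7 cells (blue). Points are limma estimates with 95% confidence intervals from 2 libraries per group. The red point lies farther from 0 than the blue one for all 7 genes, from 5.39 to 6.77 against 3.51 to 4.08 for the 6 genes that rose, and −3.87 against −0.94 for Cav1.

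In growth medium, Tw2 cells had less of 6 of the 7 genes than Pax7 cells had, and Cav1 was not called. Among all genes 74.7% were called, 26.0% lower and 48.7% higher. The median log2 difference of the 7 genes was −2.35, beside 0.34 over all genes. Gm7325 differed most, at −3.11 ± 0.21 (adjusted p = 1.91e-05), the 28th lowest of 5452. Unc45b was at −2.57 ± 0.18, Cav3 at −2.39 ± 0.18, Tmem8c at −2.35 ± 0.13, Klhl41 at −2.26 ± 0.14 and Klhl40 at −1.99 ± 0.17, with limma adjusted p from 7.84e-06 to 6.76e-05. For each of these 6 genes both Tw2_GM libraries lay below both Pax7_GM libraries, as they did for 1763 of all 5452 genes, while for 3023 both lay above. Cav1 differed by −0.05 ± 0.18 (95% confidence interval −0.47 to 0.38, limma adjusted p = 0.822), and it was called lower in Tw2_GM under size factors (−0.89), after quantile normalization (−0.69) and after removal of a trend in transcript GC content and length (−0.66). Removal of that trend, which moved with this comparison across all genes, brought the 6 differences to between −2.44 (Klhl41) and −0.99 (Klhl40), all still called. The transcripts of Tmem8c, Gm7325, Cav3, Unc45b and Klhl40 have GC contents of 54.3 to 59.3%, above at least 76.2% of the genes, while those of Klhl41 (45.0%) and Cav1 (42.6%) lie above 30.3% and 17.8% of them. Of all called genes 65.2% were higher in Tw2_GM as deposited, 32.1% under size factors, 47.2% after quantile normalization and 80.9% once the trend was removed.

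At 48 Cav1 showed the largest difference between the lineages of the 7 genes, and the 6 genes that had risen lay between −0.75 and 0.42. The libraries of the lineages did not overlap for any of the 7, as for 4884 of all 5452 genes. Cav1 was at −2.98 ± 0.18 in Tw2_48 against Pax7_48 (limma adjusted p = 4.47e-05), the 14th lowest of 5452 differences, and it remained lower under each of 17 alternatives, at −3.76 to −1.79. Gm7325 (−0.75 ± 0.21, limma adjusted p = 0.0134) and Klhl40 (−0.59 ± 0.17, limma adjusted p = 0.0178) were also called lower in Tw2_48, and Klhl41 (0.42 ± 0.14, limma adjusted p = 0.0273) was called higher. Tmem8c at −0.23 (95% confidence interval −0.53 to 0.07), Cav3 at −0.44 (−0.86 to −0.02) and Unc45b at 0.13 (−0.28 to 0.53) were not called, with limma adjusted p of 0.142, 0.0615 and 0.544. Among all genes 65.4% were called, 22.1% lower and 43.3% higher. The sign and the size of these 6 differences depended on the scaling. With the GC and length trend removed Tmem8c was at 0.50, Cav3 at 0.38, Gm7325 at 0.15 and Klhl40 at 0.06, and with size factors Unc45b was at −0.53 and Klhl41 at −0.24. Size factors also brought Gm7325 to −1.41, Klhl40 to −1.25, Cav3 to −1.10 and Tmem8c to −0.89, all called lower in Tw2_48 (limma adjusted p from 0.000595 to 0.00143). The calls of Gm7325, Klhl40 and Klhl41 were each lost when any one of the 4 libraries at 48 was left out, while the differences themselves stayed at −0.78 to −0.73, −0.62 to −0.56 and 0.34 to 0.50 in that order of genes. A limma fit to only the 4 libraries at 48 kept the calls of Gm7325 (adjusted p = 8.89e-06), Klhl40 (0.000124) and Klhl41 (0.00329). It also called Cav3 (adjusted p = 0.00181), but not Tmem8c (0.0675) or Unc45b (0.315). Of all called genes 66.2% were higher in Tw2_48 as deposited, 26.4% under size factors, 48.4% after quantile normalization and 78.1% once the trend was removed.

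**Figure D3:**
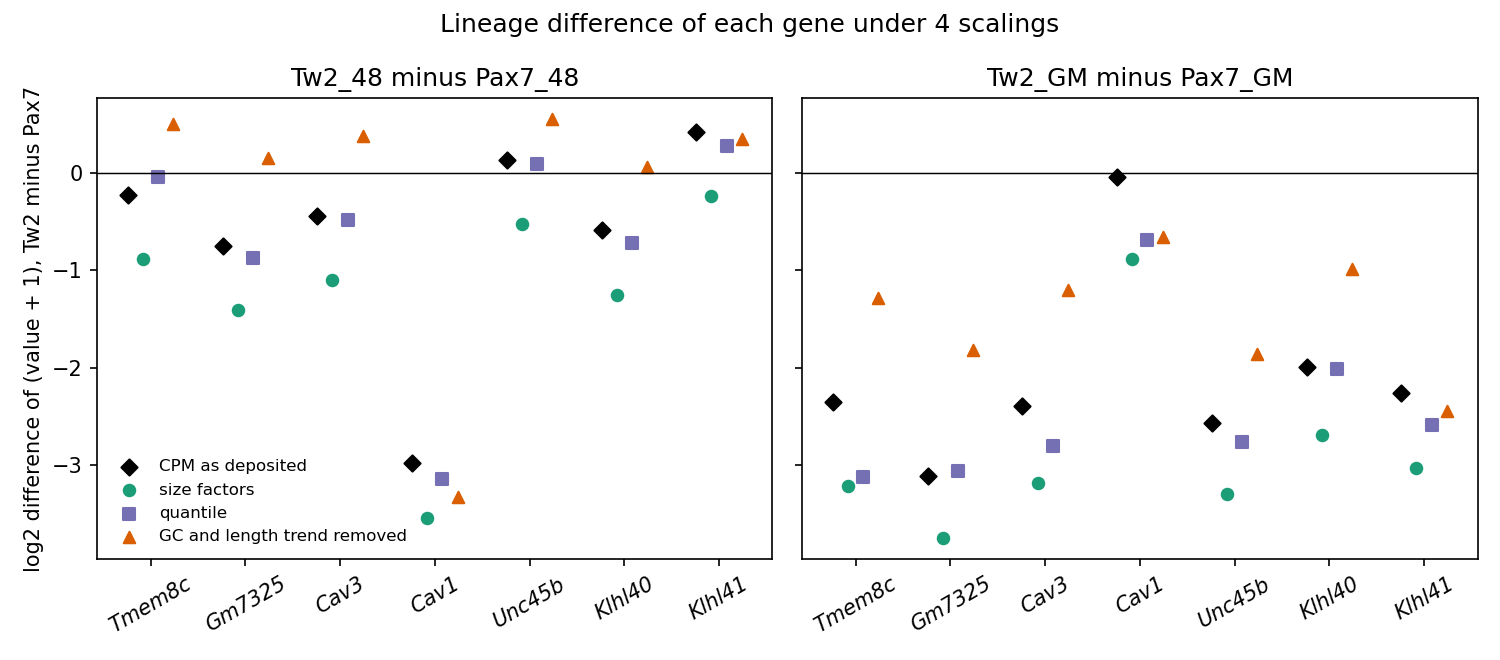
Difference in log2 level between Tw2 and Pax7 cells for each gene, at 48 (left) and in growth medium (right), under 4 scalings marked by symbol. In growth medium all scalings place the 6 genes other than Cav1 below 0. At 48 the symbols of those 6 genes lie on both sides of 0, while Cav1 lies at −2.98 as deposited and below 0 under every scaling.

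The change at 48 differed between the lineages for all 7 genes. The difference of changes (the Tw2 change minus the Pax7 change) was 2.69 ± 0.25 for Unc45b (limma adjusted p = 0.000401), 2.67 ± 0.19 for Klhl41 (limma adjusted p = 0.00018), 2.35 ± 0.29 for Gm7325 (limma adjusted p = 0.00156) and 2.12 ± 0.18 for Tmem8c (limma adjusted p = 0.000317). Cav3 followed at 1.95 ± 0.26 (limma adjusted p = 0.00204) and Klhl40 at 1.40 ± 0.25 (limma adjusted p = 0.00727). Cav1 was at −2.93 ± 0.26 (limma adjusted p = 0.000333), the second lowest of 5452. Thus 6 genes were called higher and 1 lower, against 9.72% and 9.01% of all genes (18.7% in all, or 530 and 491 genes, which ran from 310 to 962 higher and from 126 to 2191 lower with each library left out, most of both without the shallower Pax7_GM library), and all 7 were still called under each of the 16 alternatives. These values use the same libraries as the comparisons above and are not separate evidence. For the 6 genes that rose, the differences in growth medium (−3.11 to −1.99) were larger than those at 48 (−0.75 to 0.42), while for Cav1 the order was the reverse (−0.05 and −2.98). Of all called differences of changes 51.9% were positive as deposited, 74.6% with size factors and 34.9% with the trend removed.

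Levels of different genes were compared per kilobase of the longest GENCODE M21 transcript, since CPM grows with length. The level of Cav3 per kilobase was 1020.4 and 719 times that of Cav1 in Tw2_48, 75.8 and 97.6 times in Pax7_48, 0.599 and 0.664 times in Tw2_GM, and 4.86 and 2.52 times in Pax7_GM. Cav1 was therefore the higher of the pair in Tw2_GM and the lower in the other 3 groups, without correction for GC content. Removal of the GC and length trend moved Cav3 from −2.39 to −1.20 and Cav1 from −0.05 to −0.66 in Tw2_GM against Pax7_GM. These log2 differences thus came closer together. Whether Cav1 stays the higher of the pair in Tw2_GM after that removal was not tested. Tmem8c was above Gm7325 per kilobase in every library, by 7.24 and 6.96 times in Tw2_48, 4.91 and 4.98 times in Pax7_48, 9.72 and 12.4 times in Tw2_GM, and 4.05 and 5.52 times in Pax7_GM. This ratio was higher in the Tw2 than in the Pax7 libraries in either culture, with no overlap. Klhl41 was above Klhl40 in every library, by 2.74 and 2.72 times in Tw2_48, 1.47 and 1.25 times in Pax7_48, 1.69 and 1.81 times in Tw2_GM, and 1.65 and 2.32 times in Pax7_GM. As deposited, that ratio separated the lineages at 48, and in growth medium it overlapped. Taking out the same trend moved Klhl41 from 0.42 to 0.34 and Klhl40 from −0.59 to 0.06 in Tw2_48 against Pax7_48. In Tw2_GM against Pax7_GM it moved Klhl41 from −2.26 to −2.44 and Klhl40 from −1.99 to −0.99. These log2 differences of the genes thus lay closer together at 48 and farther apart in growth medium. The ratio itself was not recomputed in this way.

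**Figure D4:**
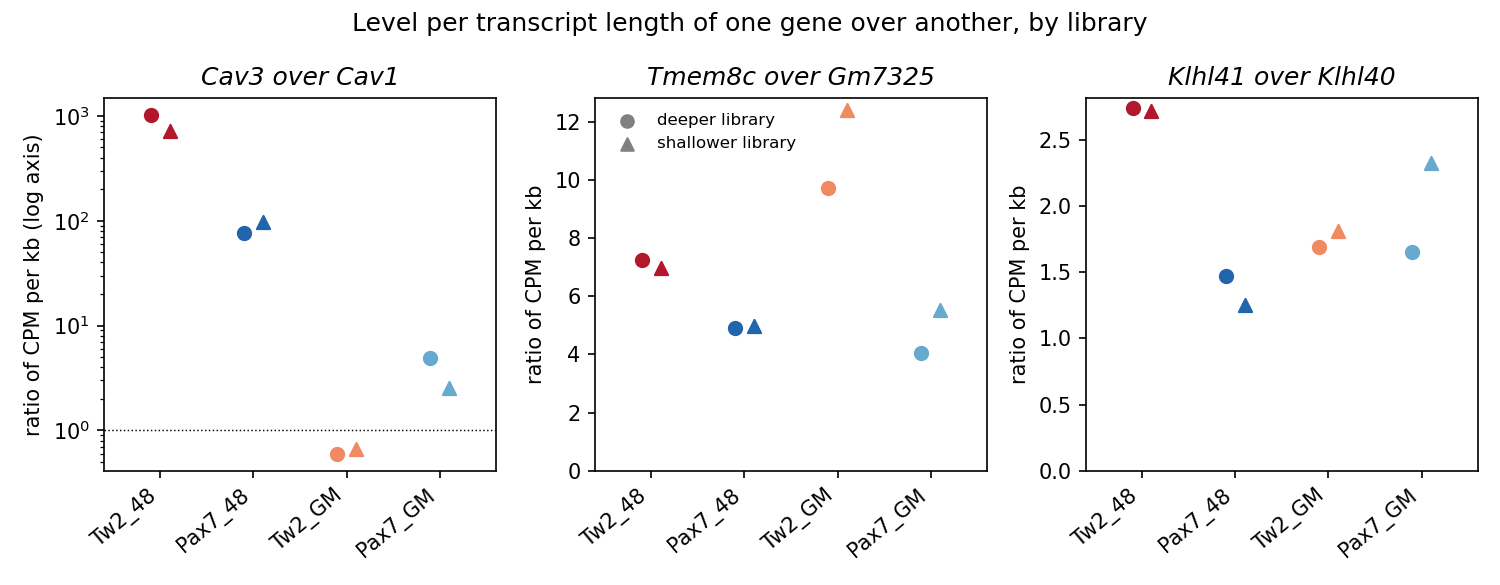
Ratio of levels per kilobase of transcript in each library for Cav3 over Cav1 (log axis, dotted line at equal levels), Tmem8c over Gm7325 and Klhl41 over Klhl40 (linear axes from 0). Circles are deeper and triangles shallower libraries. The ratio of the caveolins runs from 0.599 in Tw2_GM to 1020.4 in Tw2_48.

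The 3 genes with the pattern most like each member were found by the root mean square difference of centred log2(CPM + 1) over the 8 libraries, where the median gene was at 1.84 to 3.23 from a member. Cav3 and Klhl40 were near each other (0.16), and nearest to both was Tmem38a, a cation channel of the sarcoplasmic reticulum (0.11 from Cav3 and 0.12 from Klhl40). Cox6a2, a muscle subunit of cytochrome c oxidase, was also near Cav3 (0.20), and the calcium channel subunit Cacng6 near Klhl40 (0.21). Nearest to Tmem8c were Afap1l1 (0.16), the fast troponin Tnni2 (0.17) and the myosin light chain Myl6b (0.20), and nearest to Gm7325 were Hfe2 (0.17), which encodes hemojuvelin, and the glycolytic and glycogen enzymes Pgam2 (0.20) and Pygm (0.21). Unc45b had the calcium-binding proteins Casq2 (0.15) and Hrc (0.20) and the myosin-binding protein Mybph (0.21) nearest to it. Klhl41 had Fndc5 (0.13), the phosphodiesterase Pde2a (0.14) and Myl6b (0.23). The myomaker and myomixer genes themselves lay 0.35 apart. Cav1 had no equally close gene. Its nearest were the protease inhibitor Timp1 (0.43), the Bmp antagonist Grem1 (0.47) and Cenpv (0.56), and it lay 3.71 from Cav3. Timp1 stood at 12.8 and 15.8 CPM in Tw2_48, 123 and 127 CPM in Pax7_48, 281 and 347 CPM in Tw2_GM, with 498 and 381 CPM in Pax7_GM.

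Genes that act with these members were counted from lists. Of 32 other listed fusion genes, 12 rose and 19 fell in Tw2 cells at 48 (35.3% and 48.9% of all genes), and 12 rose and 17 fell in Pax7 cells (38.8% and 40.5% of all genes). The median log2 changes were −1.06 in Tw2 and −0.69 in Pax7 cells, beside −0.49 and 0.01 over all genes. Capn3, a muscle calpain, rose by 7.31 ± 0.13 on the log2 scale in Tw2 cells and by 4.36 ± 0.13 in Pax7 cells. Dysf, which encodes the membrane repair protein dysferlin, rose by 4.56 ± 0.13 and by 3.20 ± 0.13 in the same order. In Tw2_GM Capn3 stood at only 0.493 and 0.708 CPM, under the pseudocount of 1 CPM. Ptger4, a prostaglandin E2 receptor, was at −4.21 ± 0.21 in Tw2 and −3.23 ± 0.21 in Pax7 cells, the adhesion molecule Vcam1 was at −4.33 ± 0.18 in Tw2 cells and the tetraspanin Cd53 at −3.27 ± 0.19 in Pax7 cells (limma adjusted p of these from 1.45e-08 to 2.04e-06). Between the lineages 15 of the 32 were called higher and 5 lower in Tw2_GM (48.7% and 26.0% of all genes), and 15 higher and 8 lower in Tw2_48 (43.3% and 22.1% of all genes), with medians of 0.33 and 0.25, beside 0.34 and 0.27 over all genes. Capn3 (−2.85 ± 0.13) and Dysf (−2.25 ± 0.13) were lower in Tw2_GM, with Nckap1 (1.93 ± 0.25), an actin regulator, and Anxa1 (1.79 ± 0.25), an annexin, higher. For these last 2 genes the Pax7_GM libraries stood apart, at 54.5 and 99.9 CPM for Nckap1 and at 151 and 275 CPM for Anxa1. The follistatin gene Fst was at 2.21 ± 0.20 in Tw2_48 over Pax7_48 (limma adjusted p = 0.000202), above Nckap1 (1.41 ± 0.25), the adhesion molecule Jam2 (1.28 ± 0.15) and the integrin Itgb1 (1.24 ± 0.21).

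All 4 other listed caveola genes rose in both lineages at 48. Over all genes 35.3% were called higher in Tw2 and 38.8% in Pax7 cells. The median log2 changes of the 4 were 2.57 in Tw2 and 2.17 in Pax7 cells, beside −0.49 and 0.01 over all genes. They were Murc, the muscle cavin (3.45 ± 0.16 in Tw2 and 2.83 ± 0.16 in Pax7 cells), Pacsin3, a membrane-curving protein (4.10 ± 0.13 and 3.20 ± 0.13), and the membrane ATPases Ehd1 (1.68 ± 0.16 and 1.35 ± 0.16) and Ehd4 (1.63 ± 0.12 and 1.51 ± 0.12), with limma adjusted p from 3.95e-08 to 8.94e-05. None of these 4 followed Cav1, and caveola genes that did not pass the selection of the listed genes could not be examined. In growth medium 1 of the 4 was called lower in Tw2 cells (Pacsin3, −0.78 ± 0.13), against 26.0% of all genes. At 48 1 was called higher (Murc, 0.52 ± 0.16), against 43.3% of all genes.

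Of 45 other myofibril assembly genes, 39 rose and 5 fell in Tw2 cells (median log2 change 4.24), and 39 rose and 4 fell in Pax7 cells (median 2.61). Over all genes the medians were −0.49 and 0.01, with 35.3% called higher in Tw2 and 38.8% in Pax7 cells. The pointed-end capping protein gene Tmod1 rose by 7.17 ± 0.32 in Tw2 cells and by 4.59 ± 0.32 in Pax7 cells, and Myom2, an M-band protein, by 6.46 ± 0.13 and by 4.28 ± 0.13 in the same order. Also among the largest rises were Myoz2 (6.20 ± 0.14), a Z-disc protein, in Tw2 cells, and the ankyrin-repeat genes Ankrd2 (4.61 ± 0.13) and Ankrd23 (3.99 ± 0.17) in Pax7 cells. In Tw2_GM Tmod1 was at only 2.30 and 0.443 CPM and Myoz2 at 1.31 and 1.77 CPM, near the pseudocount of 1 CPM. The 2 Tw2_GM libraries thus stood apart for Tmod1. In growth medium 32 of the 45 were lower in Tw2 cells and 7 higher (median −1.32, beside 0.34 over all genes, of which 26.0% were lower and 48.7% higher), with Tcap, a titin-binding protein, at −3.59 ± 0.18 and Pdlim3 at −3.33 ± 0.13. At 48 there were 16 higher and 12 lower (median 0.24, beside 0.27 over all genes, 43.3% of them higher and 22.1% lower), with the largest differences after Hsp90aa1 in the lower Ankrd2 (−2.09 ± 0.13) and small heat shock gene Hspb8 (−1.61 ± 0.16) and the higher Ttn (1.55 ± 0.32), which encodes titin. The differences of changes were called positive for 31 and negative for 2 (9.72% and 9.01% of all genes), with Csrp3, a Z-disc LIM protein, at 3.80 ± 0.19 and Tcap at 3.28 ± 0.25. Levels in Tw2_GM were also low for these genes, at 1.48 and 1.33 CPM for Csrp3 and at 0.904 and 0.354 CPM for Tcap. Hsp90aa1, which encodes the Hsp90 that works with Unc45b, fell at 48 in Tw2 cells, at −1.16 ± 0.42 (limma adjusted p = 0.0291), and was not called in Pax7 cells, at −0.11 ± 0.42 (limma adjusted p = 0.822). It was at 202 and 180.3 CPM in Tw2_48, 40.3 and 34.4 CPM in Pax7_48, 454 and 404 CPM in Tw2_GM, with 22.9 and 70.2 CPM in Pax7_GM. It was higher in Tw2 cells in growth medium (3.38 ± 0.42, limma adjusted p = 0.00021) and at 48 (2.32 ± 0.42, limma adjusted p = 0.00242). Among the proteins that Klhl40 acts on, Lmod3, the leiomodin of skeletal muscle, rose by 5.88 ± 0.17 in Tw2 and 3.84 ± 0.17 in Pax7 cells, and Neb, nebulin, rose by 3.52 ± 0.30 and 3.04 ± 0.30. Lmod3 and Neb were singled out for this known partnership after their values were seen.

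Of 15 other listed BTB-kelch genes, counting Cul3, the ubiquitin ligase scaffold that such proteins bind, 7 rose and 3 fell in Tw2 cells, and 9 rose and 3 fell in Pax7 cells. The median log2 changes were 0.63 in Tw2 and 0.95 in Pax7 cells, beside −0.49 and 0.01 over all genes, of which 35.3% rose and 48.9% fell in Tw2 and 38.8% and 40.5% in Pax7 cells. Klhl13 (5.37 ± 0.25 in Tw2 and 4.15 ± 0.25 in Pax7 cells), Klhl31 (4.07 ± 0.18 and 3.29 ± 0.18) and Klhl30 (3.64 ± 0.14 and 3.45 ± 0.14) rose most, and Klhl42 fell (−2.28 ± 0.15 and −1.75 ± 0.15), with limma adjusted p from 7.54e-08 to 1.05e-05. In growth medium 9 were higher and 4 lower in Tw2 cells (48.7% and 26.0% of all genes), with Klhl9 at 2.35 ± 0.24 and Cul3 at 2.23 ± 0.33, and at 48 there were 6 higher and 2 lower (43.3% and 22.1% of all genes). The 2 Pax7_GM libraries stood apart for both, at 19.5 and 35.5 CPM for Klhl9 and at 22.1 and 51.5 CPM for Cul3.

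Of 10 myogenic regulators, 7 rose and 3 fell at 48 in each lineage, where 35.3% of all genes rose and 48.9% fell in Tw2 cells, and 38.8% and 40.5% in Pax7 cells. Between the lineages the list was divided, with 4 higher and 4 lower in Tw2_GM (median −0.01, beside 0.34 over all genes) and 5 higher and 2 lower in Tw2_48 (median 0.23, beside 0.27). Over all genes 48.7% were higher and 26.0% lower in Tw2_GM, and 43.3% and 22.1% in Tw2_48. The difference of changes was called positive for 3 of the 10 and negative for 1 (9.72% and 9.01% of all genes). Myog, the factor of terminal differentiation, was at 3697 and 3859 CPM in Tw2_48, 2491 and 2247 CPM in Pax7_48, 109.6 and 89.1 CPM in Tw2_GM, with 439 and 351 CPM in Pax7_GM. Myog was lower in Tw2_GM than in Pax7_GM (−1.98 ± 0.16, limma adjusted p = 5.26e-05), and its log2 change at 48 was 5.24 ± 0.16 in Tw2 and 2.59 ± 0.16 in Pax7 cells. Its difference of changes was 2.65 ± 0.23 (limma adjusted p = 0.000325). Pax7, the satellite cell factor, was at 13.0 and 12.6 CPM in Tw2_48, 9.58 and 9.95 CPM in Pax7_48, 113 and 109 CPM in Tw2_GM, with 117 and 112 CPM in Pax7_GM. Pax7 fell in both lineages, at −3.02 ± 0.12 in Tw2 and −3.42 ± 0.12 in Pax7 cells, and its lineage difference was −0.05 ± 0.12 in growth medium (limma adjusted p = 0.738, not called) and 0.35 ± 0.12 at 48 (limma adjusted p = 0.0303, called higher in Tw2_48). Mef2c, a partner of the myogenic factors, rose by 4.66 ± 0.25 in Tw2 and by 3.01 ± 0.25 in Pax7 cells, and was lower in Tw2 cells in growth medium (−2.57 ± 0.25) and at 48 (−0.92 ± 0.25). The related Mef2a went the other way between the lineages, at 2.12 ± 0.25 in growth medium (limma adjusted p = 0.000178) and 1.63 ± 0.25 at 48 (limma adjusted p = 0.00145). The 2 Pax7_GM libraries stood apart for both genes, at 41.3 and 73.5 CPM for Mef2a and at 13.5 and 25.5 CPM for Mef2c. Myod1 and Myf5 were not analysed here.

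Markers of the cell types that the cultures could hold moved as follows. All 10 fixed markers of differentiated muscle were listed, and the 7 taken apart summed to 11513 and 11515 CPM in Tw2_48, 9723 and 10008 CPM in Pax7_48, 203 and 168 CPM in Tw2_GM, with 1077 and 934 CPM in Pax7_GM. Satellite cell and myoblast markers (6 of 9 listed) summed to 5531 and 5469.9 CPM in Tw2_48, 7878 and 8444 CPM in Pax7_48, 2385 and 2347 CPM in Tw2_GM, with 3318 and 2779 CPM in Pax7_GM, with Des the largest term in every library. The sum does not stand for each marker. Pax7 fell at 48 (above), and so did Vcam1, at 5.83 and 4.36 CPM in Tw2_48, 12.1 and 10.6 CPM in Pax7_48, 134 and 109.5 CPM in Tw2_GM, with 101 and 121 CPM in Pax7_GM. Cdh15, Itga7 and Sdc4 are not given singly. Cav1 is also made by cells other than muscle, and those markers were therefore set beside it. Fibro-adipogenic markers (5 of 11) summed to 645 and 692 CPM in Tw2_48, 592 and 635 CPM in Pax7_48, 1145 and 1092 CPM in Tw2_GM, with 731 and 719 CPM in Pax7_GM. Pericyte and smooth muscle markers (6 of 9) summed to 8934 and 8539 CPM in Tw2_48, 5325 and 5609 CPM in Pax7_48, 847 and 906 CPM in Tw2_GM, with 987 and 857 CPM in Pax7_GM, of which Acta2 alone was 8616 and 8229 CPM in Tw2_48, 5139 and 5421 CPM in Pax7_48, 542 and 551 CPM in Tw2_GM, with 769 and 659 CPM in Pax7_GM. Among them the pericyte gene Rgs5 was at 0.510 and 0.213 CPM in Tw2_48, at 0 reads in both Pax7_48 libraries, at 56.3 and 62.1 CPM in Tw2_GM, with 11.4 and 18.9 CPM in Pax7_GM. Rgs5 does not stand for the other markers of this list, and Cspg4, Tagln, Abcc9 and Mcam are not given singly. The only endothelial marker listed of 10 was Eng, at 39.1 and 38.9 CPM in Tw2_48, 10.5 and 10.3 CPM in Pax7_48, 67.4 and 80.7 CPM in Tw2_GM, with 13.8 and 9.45 CPM in Pax7_GM. The only immune marker of 8, Itgam, had 0 reads in Tw2_GM, 0.542 and 0.579 CPM in Pax7_GM, and 11.9 to 22.8 CPM at 48. The only adipocyte marker of 7, Cd36, ran from 0.531 to 4.05 CPM in growth medium and from 14.0 to 27.3 CPM at 48, and none of 5 Schwann cell markers was listed. The part of such cells in the Cav1 result was not tested.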

How the data were processed

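The authors deposited 1 table with the mean CPM of 4 groups and 3 log2 fold changes against Tw2_GM, plus a status column holding 1 in every row, per the file headers. TopHat2 2.0.0, DESeq2 1.6.3 and the build GRCm38 (mm10) are listed, with no role, in the submitters' processing notes; the counting tool and annotation are not given in the sources used here. The authors' deposited log2 fold changes equal log2 of (group mean + 1) over (Tw2_GM mean + 1) to within 1.4e-11.

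Each read of a library adds a fixed step to its group's mean, and the step differs between the 2 libraries. Both steps were found from the lowest values, and whole-number pairs within 1.1 times the rounding error were sought for each mean. A single pair was found in all groups for 5452 of 5457 genes, and the other 5 were left out. The procedure was tested on simulated data. The implied sizes are not whole numbers, so the authors' CPM rests on scaled sizes. At these sizes 3 reads come to 0.218 to 0.579 CPM.

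Limma 3.58.1 (R 4.3.3) was run on log2(CPM + 1) of the 8 libraries with 1 mean per group and eBayes without trend (4 residual degrees of freedom), so the spread is pooled over all groups. Alternatives were the pseudocount, a filter at a mean of 20 CPM, size factors, quantile normalization, removal of a loess trend with GC content and length of the longest GENCODE M21 transcript (5431 genes), eBayes with a trend, voom, fits to the compared groups, and each library left out. Size factors rest on listed genes with reads in all 8 libraries, a set selected for change against Tw2_GM. Results of the alternatives are given for the 7 members and for counts over all genes, not for other named genes. Named genes are the 7 members, the 3 nearest genes of each without predicted models, up to 4 called genes of each list with the largest change, and Pax7, Myod1 and Myog. One gene that this rule names is not reported here. The members, lists and tests were chosen with earlier results of these data known.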

Additional observations from a re-analysis of the deposited data

Results flagged for a closer look

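The change between 48 and growth medium differed between Tw2 and Pax7 cells, by a test of that difference, for each of the 7 genes. As Tw2 change minus Pax7 change on the log2 scale, it was 2.12 for Tmem8c, 2.35 for Gm7325, 1.95 for Cav3, 2.69 for Unc45b, 1.40 for Klhl40, 2.67 for Klhl41 and −2.93 for Cav1. With groups of 2 libraries, no single library could be tested for standing apart.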

How the results depend on the processing

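Of 588 values of the 7 genes over 17 alternatives (16 for the difference of changes), 555 kept their direction and their side of the threshold, among them all those of 48 against growth medium in either lineage and of the difference of changes. The rest concerned the lineage differences, 29 of them at 48 and 4 for Cav1 in growth medium. Some alternatives cannot move an estimate, so its direction was fixed there. These were eBayes with a trend, the fit to the compared groups, and leaving out a library of a group not compared. At 48, removal of the GC and length trend turned the sign of Tmem8c (0.50), Gm7325 (0.15), Cav3 (0.38) and Klhl40 (0.06), and size factors turned that of Unc45b (−0.53) and Klhl41 (−0.24). Cav1 in growth medium ran from −0.24 to 0.14 with each library left out, at 0.14 without the shallower Pax7_GM library. Members called at 48 were 1 higher and 3 lower as deposited, 0 and 6 with size factors, 4 and 1 with the trend removed, 0 higher with quantile normalization, 5 lower with voom, and 0 to 1 higher and 1 to 4 lower with each library left out, where loss of any of the 4 libraries at 48 gave 0 and 1. The causes were not tested.

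Counts over all genes moved too. In growth medium 2655 were higher and 1417 lower as deposited, 1392 and 2940 with size factors, 2208 lower with quantile normalization and 802 lower with the trend removed. Size factors moved the median of all genes by −0.84 there and by −0.63 at 48, and quantile normalization by −0.48 and −0.29. At 48 the counts were 2363 higher and 1205 lower as deposited, 944 and 2634 with size factors, 715 lower with the trend removed, and 1462 to 2705 higher and 671 to 1513 lower with each library left out. The difference of changes was positive for 530 and negative for 491, negative for 223 with size factors and 1147 with the trend removed, and positive for 310 to 962 and negative for 126 to 2191 with each library left out, the highest of both without the shallower Pax7_GM library. No paired analysis was possible because the deposited columns are group means that carry no replicate numbers. Where a group kept 1 library, that library was assumed to vary like the other groups. Depth limits Cav1 in Tw2_48 most, at 14 reads per library.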
